A study of Mus musculus with 12 samples.

Results

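Interferon regulatory factors (IRFs) are transcription factors that switch on genes of antiviral and antimicrobial defence. The 8 genes described here are 6 members of that family (Irf1, Irf2, Irf3, Irf7, Irf8 and Irf9), the signal transducer Stat2, which acts together with IRF9, and Batf2, an AP-1 family factor that acts together with IRFs. They were chosen by symbol, with earlier results of these data known. Each matched exactly 1 of the 54838 Ensembl identifiers in the counts. All 8 were expressed well enough in the ileum to be among the 15938 genes tested. They are described in whole ileum of C57BL/6J mice, as RNA-seq read counts per gene, across 4 groups of 3 mice.

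Control mice (water + PBS) drank normal water for 7 days and then received an injection of PBS. A second group drank water with 25 mM ZnSO4 over the same days and received PBS (ZnSO4 + PBS). Dexamethasone (Dex) is a synthetic glucocorticoid that activates the glucocorticoid receptor. A dose of 200 µg Dex in PBS was injected into mice on normal water (water + Dex) and into mice on zinc water (ZnSO4 + Dex). Ileum was taken 2 h after the injection in every group, so zinc acted for days and Dex for hours. None of the groups carried a genetic modification, and all of them received an injection. The study asked what zinc and Dex, alone and together, do to transcription in the gut.

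Interferons bind receptors at the cell surface, and the kinases attached to these receptors phosphorylate STAT proteins. Type I and type III interferons lead to the complex ISGF3, which includes STAT2 and IRF9 and binds interferon-stimulated response elements (ISRE). Interferon gamma acts through gamma-activated sites (GAS) and induces IRF1. IRF3 and IRF7 lie upstream, since sensors of nucleic acids and of bacterial products activate them to induce the interferon genes themselves. Basal activity of these pathways in the gut is known to be maintained by the microbiota. IRF2 occupies the same sites as IRF1 and is known mainly as its antagonist. IRF8 is best known from myeloid cells and B cells, and the BATF2 gene is itself induced by interferons.

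Library totals lay between 10760132 and 11827487 counts, with a median of 11388606. Of the defining enterocyte markers (Vil1, Alpi, Fabp2, Fabp6, Slc10a2, Anpep, Sis and Apoa4), 8 of 8 had counts in every library. The treatments were visible in genes known to answer to them. The metallothionein gene Mt1 rose by 4.79 ± 0.28 (log2 fold change ± SE) with zinc in PBS mice, and the glucocorticoid-induced gene Fkbp5 rose by 3.34 ± 0.13 with Dex in water mice. Values below are normalised counts, that is, counts scaled to a common library size of 11377723 reads, as mean ± SD of 3 mice, and the differences are log2 fold changes ± SE from edgeR's quasi-likelihood test with Benjamini-Hochberg adjustment over all 15938 genes. A gene was called at an adjusted p under 0.05. With 3 mice per group the p-values measure the spread between these mice only. In whole tissue, fewer cells of a type and less RNA per cell cannot be told apart.

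Irf1, Irf8 and Stat2 were called lower in at least 1 of the single treatments, and the 250 bases upstream of the first RefSeq start of each (GRCm38.p6, printed 5′ to 3′ along the gene) are shown because all 3 hold a letter match to a site of this pathway. Capitals mark the matches to GAS (TTCNNNGAA) or, on either strand, ISRE (GAAANNGAAA). The windows of Irf1 (chr11:53769764-53770013, plus strand), Irf8 (chr8:120736108-120736357, plus strand) and Stat2 (chr10:128270248-128270497, plus strand) overlap no annotated exon.
Irf1: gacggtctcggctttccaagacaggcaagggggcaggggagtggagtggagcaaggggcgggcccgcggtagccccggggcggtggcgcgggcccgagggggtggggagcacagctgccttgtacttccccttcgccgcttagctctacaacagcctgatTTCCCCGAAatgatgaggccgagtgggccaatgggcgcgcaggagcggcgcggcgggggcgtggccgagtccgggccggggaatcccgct
Irf8: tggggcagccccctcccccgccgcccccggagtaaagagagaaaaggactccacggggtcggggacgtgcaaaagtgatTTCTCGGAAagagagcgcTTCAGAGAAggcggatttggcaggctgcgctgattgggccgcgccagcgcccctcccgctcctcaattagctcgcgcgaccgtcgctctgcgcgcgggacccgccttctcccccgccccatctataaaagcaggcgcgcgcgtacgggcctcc
Stat2: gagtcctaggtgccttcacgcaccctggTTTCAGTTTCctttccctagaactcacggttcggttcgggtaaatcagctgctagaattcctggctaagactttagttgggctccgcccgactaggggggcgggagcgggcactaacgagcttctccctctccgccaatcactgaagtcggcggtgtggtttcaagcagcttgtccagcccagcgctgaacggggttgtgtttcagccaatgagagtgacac

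Irf1 held 1 GAS match, 90 to 82 bases upstream of the start. Irf8 held 2 GAS matches, the first 171 to 163 bases and the other 153 to 145 bases upstream. Stat2 held 1 ISRE match, on the reverse strand, 222 to 213 bases upstream. RefSeq gives Irf1 and Irf8 a further start each, and the windows upstream of those (chr11:53770223-53770472 and chr8:120738389-120738638) held 0 matches. Irf2, which was called in no comparison, also held 1 GAS and 1 ISRE match in its window. Of all 32817 RefSeq promoter windows of this length, 7.01% held a GAS match and 2.97% an ISRE match. The windows of Irf3, Irf7 and Irf9 held neither. Both Irf9 windows (chr14:55603735-55603984 and chr14:55604329-55604578) lay inside the annotated gene and overlapped its exons. The bases upstream of the annotated Irf9 gene were therefore not searched. The windows of Irf2 and Irf7 also overlapped exons of their own genes, and that of Irf3 overlapped an exon of Bcl2l12. No window of the 7 genes searched held the palindromic glucocorticoid response element GNACANNNTGTNC, found in 0.387% of all windows. The set of windows used held none for Batf2, which was not searched. These are matches of letters, and no binding was measured.

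Zinc alone lowered 4 of the 8 factors and raised none. Irf1, Irf8, Batf2 and Stat2 fell in ZnSO4 + PBS mice against water + PBS mice, while Irf2, Irf3, Irf7 and Irf9 were not called. Among all genes tested 4.66% were called in this comparison and 2.54% were called lower. The fitted difference was below 0 for 8 of 8 factors, with a median of -0.38 against -0.01 over all genes. Dex alone lowered 3 of 8, namely Irf1, Irf8 and Batf2, and raised none, in a comparison in which 9.93% of all genes were called and 4.51% were lower. The median difference of the factors with Dex was -0.28, against -0.01 over all genes. Mice that received both treatments had 5 factors below the control mice, Irf1, Irf8, Batf2, Stat2 and Irf7, with a background of 23.3% called and 11.9% lower. The median of the 8 factors was then -0.94, against -0.01 over all genes. Because the factors were chosen with earlier results of these data known, these counts and medians are no test of the set.

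**Figure D1:**
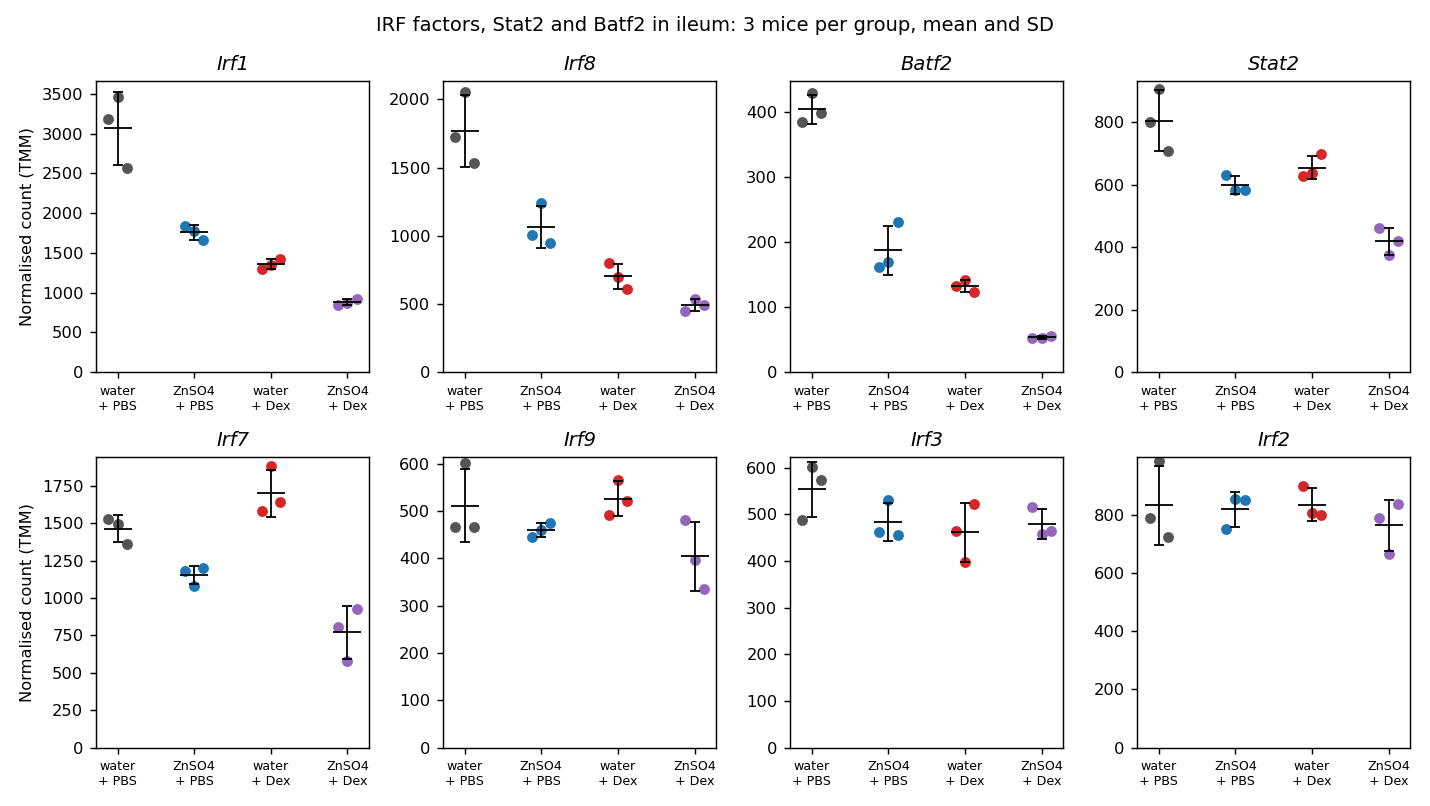
Normalised counts of the 8 factors (vertical axes, each starting at 0) in the 4 groups (horizontal axes), 1 point per mouse with the group mean and SD. Irf1, Irf8 and Batf2 step down from water + PBS through ZnSO4 + PBS and water + Dex to ZnSO4 + Dex, Irf7 is highest in water + Dex, and the groups of Irf2 and Irf3 overlap.

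Irf1 (GRCm38 chr11:53770014-53778374, plus strand) encodes a factor that interferon gamma induces and that drives antigen processing and guanylate-binding protein genes. Its normalised counts in the control mice were 3183, 3462 and 2564, and in ZnSO4 + PBS mice they were 1844, 1773 and 1657. Water + Dex mice had 1300, 1353 and 1422, and ZnSO4 + Dex mice had 843, 869 and 921. None of the 4 groups overlapped another, and the order control, zinc, Dex, both held for every mouse. Groups without overlap are common with 3 mice each. Against control mice they were found for 25.3% of all genes with zinc alone, 29.7% with Dex alone and 36.9% with both, in either direction. With zinc alone the mean went from 3069 ± 460 to 1758 ± 94.4, a 1.75-fold lower level (-0.80 ± 0.10, adjusted p = 0.00148). With Dex alone Irf1 was 2.26-fold lower (-1.18 ± 0.10, adjusted p = 2.24e-05) and with both 3.50-fold lower (-1.81 ± 0.10, adjusted p = 8.12e-07). Zinc also lowered Irf1 in mice that had received Dex (-0.63 ± 0.10, adjusted p = 0.00546), and Dex lowered it in mice on zinc (a change of -50.1%, adjusted p = 6.54e-05).

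Batf2 (chr19:6140983-6172476, plus strand) encodes an AP-1 family protein with a basic leucine zipper that partners IRF1 and IRF8 and is a typical interferon-induced gene of macrophages. It had the largest fold of the 8 factors in each of the 5 comparisons with control, zinc or Dex mice, in all of which it was called. Control mice had 384, 428 and 398 normalised counts, and ZnSO4 + PBS mice had 162, 168 and 231. In water + Dex mice the values were 132, 141 and 123, and in ZnSO4 + Dex mice 51.8, 51.9 and 55.5. Again no group overlapped another, and the 3 mice with both treatments were nearly equal. Batf2 was 2.16-fold lower with zinc (-1.11 ± 0.13, adjusted p = 0.00115), 3.05-fold lower with Dex (-1.61 ± 0.13, adjusted p = 1.83e-05) and 7.59-fold lower with both (-2.92 ± 0.14, adjusted p = 2.64e-07). Zinc lowered it among Dex mice (-1.31 ± 0.14, adjusted p = 0.000796), and Dex lowered it among zinc mice (-1.82 ± 0.14, adjusted p = 1.15e-05).

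Irf8 (chr8:120736358-120756694, plus strand) encodes a factor needed for monocytes, classical dendritic cells and parts of the B cell lineage. Its values were 1721, 2054 and 1531 in control mice, 1005, 1237 and 943 in ZnSO4 + PBS mice, 796, 700 and 606 in water + Dex mice, and 447, 533 and 493 in ZnSO4 + Dex mice. The order of the groups was that of Irf1, again without overlap. Irf8 was 1.67-fold lower with zinc alone (-0.74 ± 0.14, adjusted p = 0.0138) and 2.52-fold lower with Dex alone (-1.34 ± 0.14, adjusted p = 0.000102). The zinc call was lost when ZnSO4 + PBS replicate 1 (adjusted p = 0.0602) or replicate 3 (adjusted p = 0.0627) was left out. Among mice with Dex the zinc difference was -0.51 ± 0.14 and was not called (adjusted p = 0.0679). Each ZnSO4 + Dex mouse lay below each water + Dex mouse, as was the case for 13.2% of all genes. Dex lowered Irf8 in zinc mice (-1.11 ± 0.14, adjusted p = 0.000312), and with both treatments it was 3.60-fold lower than in control mice (-1.85 ± 0.14, adjusted p = 7.10e-06).

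**Figure D2:**
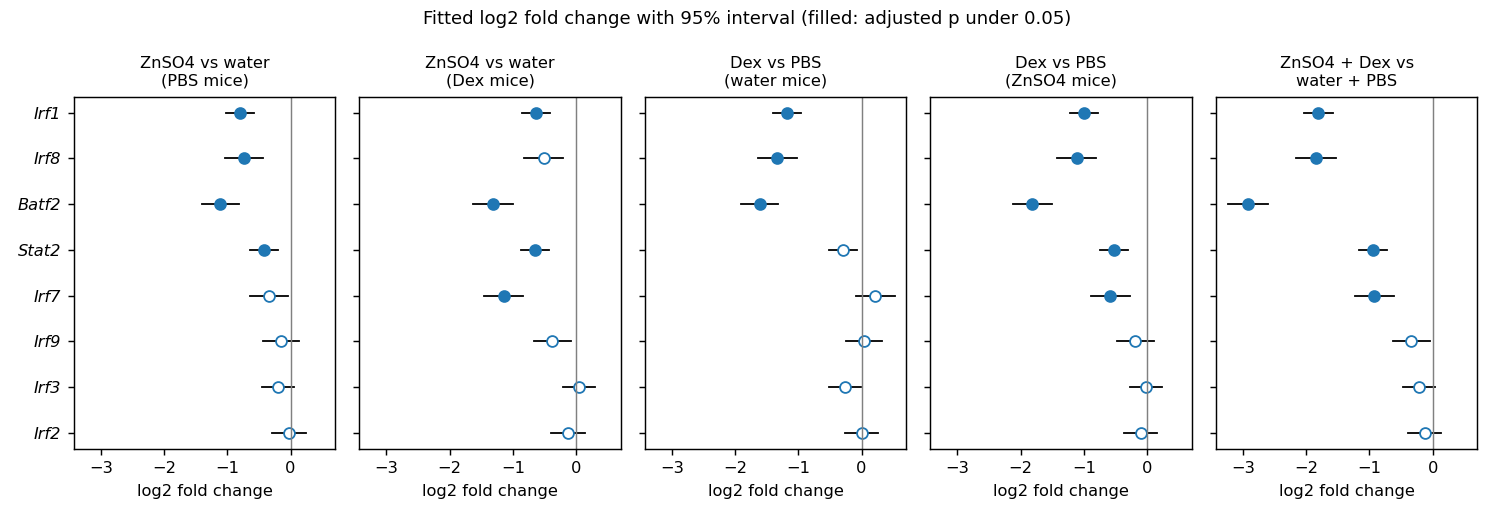
Fitted log2 fold changes (horizontal axes) of the 8 factors (rows) with 95% intervals in 5 comparisons, filled where the adjusted p was under 0.05. Batf2 lies farthest to the left in each panel, between -1.11 and -2.92, Stat2 and Irf7 are filled in 4 and 3 panels, and Irf2, Irf3 and Irf9 are open throughout.

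The other factors divide into the partners of ISGF3 and the arm that senses pathogens. Stat2 (chr10:128270559-128292849, plus strand), the ISGF3 subunit that carries the main transactivation domain, had 801, 905 and 709 normalised counts in control mice and 632, 583 and 584 in ZnSO4 + PBS mice. It had 628, 638 and 698 in water + Dex mice and 461, 374 and 419 in ZnSO4 + Dex mice. Each treated group lay wholly below the control group, and the mice with both treatments lay below all others. The share of all genes lying wholly below control was 12.9% with zinc, 14.5% with Dex and 18.9% with both. Stat2 was 1.34-fold lower with zinc (-0.42 ± 0.10, adjusted p = 0.0378), and with Dex alone the difference was -0.30 ± 0.10 (adjusted p = 0.0946, not called). The zinc call of Stat2 was lost in 9 of the 12 fits that left out 1 library, with adjusted p up to 0.133. It was kept only without water + PBS replicate 3, ZnSO4 + Dex replicate 1 or ZnSO4 + Dex replicate 2. When the other treatment was already present the falls were called, with -0.65 ± 0.10 for zinc in Dex mice (adjusted p = 0.00513) and -0.52 ± 0.10 for Dex in zinc mice (adjusted p = 0.00539). With both treatments Stat2 was 1.93-fold lower than in control mice (adjusted p = 7.30e-05).

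Irf9 (chr14:55603571-55610030, plus strand), the DNA-binding partner of STAT2 in ISGF3, was not called in any comparison. It ranged from 467 to 601 in control mice, from 445 to 474 in ZnSO4 + PBS mice, from 492 to 565 in water + Dex mice and from 335 to 481 in ZnSO4 + Dex mice. The lowest values were thus in mice with both treatments, where the difference from control was -0.34 ± 0.13 (95% interval -0.63 to -0.05, adjusted p = 0.0901). Leaving out ZnSO4 + Dex replicate 1 brought this difference to an adjusted p of 0.0276. A part of the exonic sequence of Irf9, 2.28%, is shared on the same strand with Rnf31, and such reads cannot be assigned to 1 of the genes with certainty.

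Irf7 (chr7:141262706-141266481, minus strand), the amplifier of the type I interferon response, had a pattern unlike that of Irf1. Control mice had 1531, 1498 and 1360 normalised counts and ZnSO4 + PBS mice 1179, 1084 and 1198. Water + Dex mice had 1582, 1879 and 1642, each above every control mouse, and ZnSO4 + Dex mice had 806, 580 and 927, each below every other mouse. Of all genes, 15.2% lay wholly above control with Dex alone and 18.9% wholly below control with both. Neither treatment alone was called, with differences of -0.34 ± 0.14 for zinc (adjusted p = 0.195) and 0.22 ± 0.14 for Dex (adjusted p = 0.394). The zinc difference reached an adjusted p of 0.0423 without ZnSO4 + Dex replicate 2, the library with the lowest Irf7.

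In the presence of Dex, zinc lowered Irf7 from 1701 ± 157 to 771 ± 176, or 2.21-fold (-1.14 ± 0.14, adjusted p = 0.00153). In the presence of zinc, Dex lowered it as well (-0.58 ± 0.14, adjusted p = 0.0170), a call that was lost without ZnSO4 + PBS replicate 1 (adjusted p = 0.0567) or replicate 3 (adjusted p = 0.0542). The zinc-by-Dex interaction, the difference between the zinc effects in Dex mice and in PBS mice, was -0.80 ± 0.20 for Irf7 (95% interval -1.23 to -0.37), with an unadjusted p of 0.00175 and an adjusted p of 0.952. It was not called. Over the whole table edgeR called 0 of 15938 genes for an interaction, while 794 genes (4.98%) had an unadjusted p under 0.05 and DESeq2 called 6.

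Irf3 (chr7:44997648-45002848, plus strand), the constitutively present factor that sensors of viral nucleic acids activate by phosphorylation, was not called in any comparison. It ranged from 488 to 601 in control mice and from 397 to 532 over the 9 treated mice. The group means were 554 ± 58.7, 484 ± 41.6 with zinc, 462 ± 62.8 with Dex and 479 ± 31.5 with both. The 95% interval of its difference was -0.45 to 0.05 for zinc alone and -0.51 to -0.01 for Dex alone (adjusted p = 0.379 and 0.198). Irf2 (chr8:46739732-46847458, plus strand), the antagonist, was likewise not called, with group means between 764 ± 87.5 and 835 ± 56.5. Its intervals ran from -0.29 to 0.24 for zinc alone, from -0.26 to 0.27 for Dex alone and from -0.39 to 0.14 for both. A fall as large as that of Irf1 lay outside these intervals.

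Zinc in mice with Dex, and Dex in mice with zinc, were called for 4 and 5 of the 8 factors, all lower. The former were Irf1, Irf7, Stat2 and Batf2 (background 4.37% called, 2.54% lower), the latter the same 4 genes and Irf8 (background 13.7% called, 7.08% lower). The medians were -0.57 and -0.55, against 0.01 over all genes in both comparisons. For the interaction 0 of 8 factors were called, and the estimates other than that of Irf7 lay between -0.23 and 0.25. The 95% interval for Irf1 was -0.14 to 0.48, and that for Batf2 was -0.63 to 0.22. These comparisons share groups of mice, so their values stand beside each other and are not independent of each other.

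Mice with zinc alone and mice with Dex alone were also compared directly, a comparison added after the data had been seen. Irf1, Irf8 and Batf2 were higher in ZnSO4 + PBS mice than in water + Dex mice, by 0.37 ± 0.10 (adjusted p = 0.0244), 0.60 ± 0.14 (adjusted p = 0.0118) and 0.50 ± 0.13 (adjusted p = 0.0235). Irf7 was lower (-0.56 ± 0.14, adjusted p = 0.0165). Thus 3 factors were higher and 1 lower, with a background of 17.6% called, 8.58% higher and 9.03% lower. The call of Irf8 was kept in 12 of 12 fits that left out 1 library. The call of Irf1 was lost without water + Dex replicate 1 or 2 or ZnSO4 + PBS replicate 1 or 2 (adjusted p up to 0.0918). That of Batf2 was lost without water + Dex replicate 1 or 3 or ZnSO4 + PBS replicate 3 (up to 0.0805), and that of Irf7 without water + Dex replicate 2 or 3 or ZnSO4 + PBS replicate 2 (up to 0.0872).

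Levels of different genes were compared per kb of exonic sequence, as CPM (counts scaled to library size) per kb. In control mice Irf1 was the most abundant of the 8 at 67.9 ± 10.2, followed by Irf7 at 34.1 ± 2.12 and Irf8 at 22.0 ± 3.30, with no overlap between these neighbours. Irf3, Batf2, Stat2, Irf2 and Irf9 followed between 14.1 ± 1.50 and 8.35 ± 1.27, each overlapping the next. In mice with both treatments Irf1 (19.4 ± 0.874) and Irf7 (17.9 ± 4.09) overlapped. There Irf8, at 6.12 ± 0.538, had moved from the third place to the seventh, and Batf2, at 1.85 ± 0.0739, was last and apart from the other 7. In water + Dex mice Irf7, at 39.6 ± 3.66, lay above Irf1, at 30.0 ± 1.35, and these did not overlap.

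Upstream of these factors, the interferon genes themselves gave almost no reads. Of 10 interferon genes looked up (Ifng, Ifnb1, Ifne, Ifnk, Ifnl2, Ifnl3, Ifna1, Ifna2, Ifna4 and Ifnz), 0 passed the filter on low counts. Ifng, the inducer of IRF1, had 1 to 6 reads in control libraries, 0 to 3 in ZnSO4 + PBS, 0 to 2 in water + Dex and 0 in all ZnSO4 + Dex libraries, too few for a comparison. Of 6 receptor genes 0 were called with zinc alone. With Dex alone 1 was, Ifnlr1, the ligand-binding chain for type III interferon of epithelia, which fell by 0.95 ± 0.19 (adjusted p = 0.00713). None of the 3 receptor kinase genes was called with either treatment alone. Over all genes 4.66% were called with zinc alone and 9.93% with Dex alone. Tyk2 fell by 0.24 ± 0.07 with Dex in zinc mice (adjusted p = 0.0463), a call kept in 4 of the 12 fits that left out 1 library.

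Of 16 sensors and adaptors upstream of IRF3 and IRF7, zinc alone lowered 2, with 2.54% of all genes lower. Zbp1, a sensor of Z-form nucleic acids, fell by 2.33 ± 0.22 (adjusted p = 0.000262), from 851 ± 225 to 169 ± 24.2. Tbk1, the kinase that phosphorylates IRF3, fell by 0.39 ± 0.10 (adjusted p = 0.0468), a call kept in 2 of the 12 fits that left out 1 library. Dex alone lowered 3 others, Tlr3, Mavs and Ddx58 (-0.59 ± 0.09, -0.60 ± 0.09 and -0.64 ± 0.11), and raised Tlr7 by 1.33 ± 0.38 (adjusted p = 0.0477), a gene outside the naming rule that was added after its value had been seen. Zbp1 was not called with Dex alone (848 ± 86.6, 95% interval of the difference -0.45 to 0.44) and was lower in zinc mice than in Dex mice (-2.32 ± 0.22, adjusted p = 3.26e-05). No sensor was called higher with Dex alone in 9 of the 12 fits that left out 1 library, so the Tlr7 call was lost in these. With both treatments 9 of the 16 were lower and 1 was higher, the latter 0 in 6 of these 12 fits. Across all genes tested 4.51% were lower and 5.41% higher with Dex alone. With both treatments 11.9% of all genes were lower, and 1828 of the 15938 genes were higher.

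Among other genes of the STAT, IRF and BATF families, Stat3, the transducer of IL-6 family cytokines and IL-22, was lower in mice with both treatments than in control mice (-0.75 ± 0.12, adjusted p = 0.000960). So was Stat6, the transducer of IL-4 and IL-13 (-0.28 ± 0.06, adjusted p = 0.00561). Both calls were kept in 12 of 12 fits that left out 1 library, and neither gene was called with zinc alone or Dex alone. Irf4 and Irf5 were not called with a single treatment either, and Irf4 was called in mice with both against control mice (-1.16 ± 0.33, adjusted p = 0.0264). The same held for Batf (-1.96 ± 0.60, adjusted p = 0.0351), of the other BATF genes Batf and Batf3. The calls of Irf4 and Batf were lost without water + PBS replicate 2 (adjusted p = 0.110 and 0.184) or without any 1 of the 3 ZnSO4 + Dex mice. With the mean log2 CPM of the B cell markers as a covariate they were also lost, with Irf4 at -0.65 (adjusted p = 0.124) and Batf at -0.95 (adjusted p = 0.151).

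**Figure D3:**
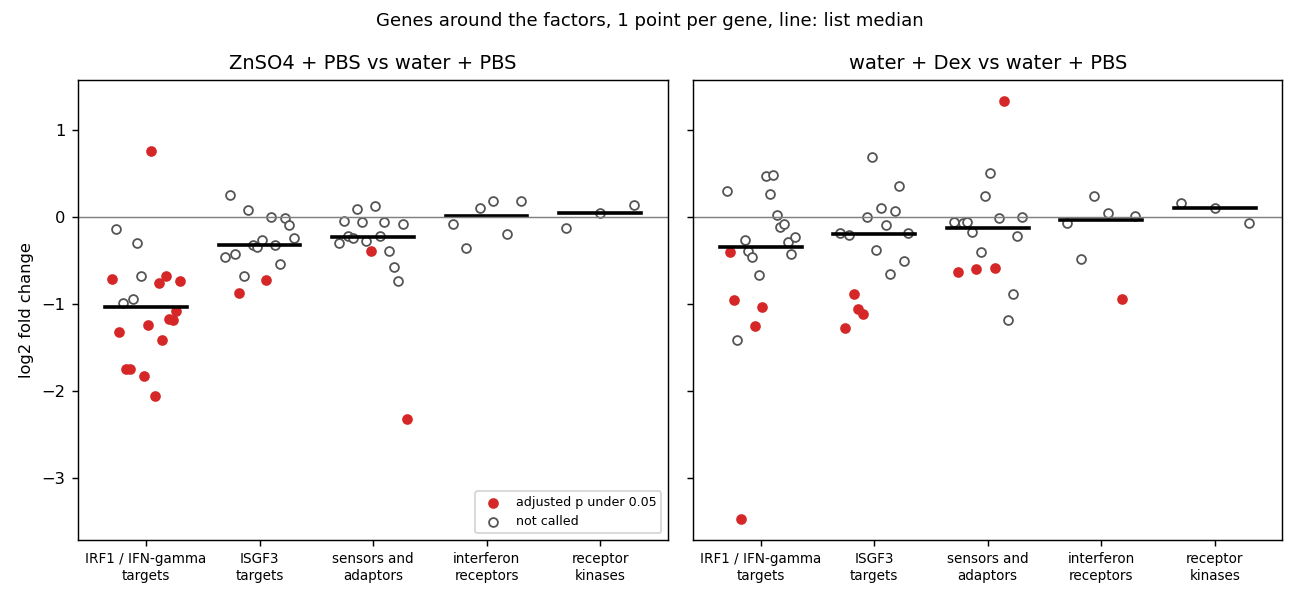
Fitted log2 fold changes (vertical axis) of the genes of 5 lists around the factors (horizontal axis) with zinc alone and with Dex alone, 1 point per gene, filled where the adjusted p was under 0.05, with a line at the list median. In the list of IRF1 and interferon gamma targets the median is -1.04 with zinc and -0.34 with Dex, and Cxcl10 is the lowest point with Dex at -3.47.

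Known targets of these factors were counted from 2 lists, drawn up with earlier results of these data known, so the counts are no test of the lists. Of 20 targets of IRF1 and interferon gamma, zinc alone lowered 14 and raised 1, Il15, while Dex alone lowered 5 and raised 0. Across all genes tested 2.54% were lower and 2.11% higher with zinc alone, and 4.51% lower and 5.41% higher with Dex alone. The list medians were -1.04 and -0.34, against -0.01 over all genes in both comparisons. The count with zinc alone was 9 with only the groups compared, 9 without water + PBS replicate 1, 7 without ZnSO4 + PBS replicate 1 and 5 without the libraries richest in B cell markers. The Il15 call was lost in 5 of the 12 fits that left out 1 library. The count with Dex alone fell to 2 without water + PBS replicate 1 or 2 or water + Dex replicate 2 or 3, and to 3 without the libraries richest in B cell markers. With zinc the smallest p-values were those of Il18bp, the soluble inhibitor of IL-18 (-2.06 ± 0.19, adjusted p = 0.000262), and the immunoproteasome subunits Psmb8 (-1.18 ± 0.15, adjusted p = 0.00171) and Psmb9 (-1.19 ± 0.16, adjusted p = 0.00237). The interferon-inducible GTPase gene Igtp and the T cell chemokine gene Cxcl9, outside the naming rule and added after their values had been seen, had larger log2 falls with zinc than Psmb8 and Psmb9 (-1.83 ± 0.30 and -1.76 ± 0.32). With Dex the smallest p-values were those of the T cell chemokine Cxcl10 (-3.47 ± 0.35, adjusted p = 6.97e-05), the caspase gene Casp1 (-0.40 ± 0.07, adjusted p = 0.00385) and the immunity-related GTPase gene Iigp1 (-1.04 ± 0.24, adjusted p = 0.0156). Casp1 had the smallest log2 fall of the 5 called genes, and Gbp5, added in the same way, had a larger one (-1.26 ± 0.29). The Iigp1 call was lost in 5 of the 12 fits that left out 1 library, those without water + PBS replicate 1 or 2 or any water + Dex mouse (up to 0.0603).

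Tested directly, 10 of these 20 targets were lower and 2 higher with zinc than with Dex, among them Il18bp (-2.31 ± 0.19), Irgm1 (-1.24 ± 0.15) and Psmb8 (-1.09 ± 0.15) with adjusted p of 1.42e-05, 0.000232 and 0.000482. Among all genes 9.03% were lower and 8.58% higher in this comparison, and the 2 higher targets were 1 or 0 under 8 alternatives. Irf1 itself was higher with zinc than with Dex in the same comparison, a call kept in 8 of the 12 fits that left out 1 library. The groups also differ in time, 7 days of zinc against 2 h of Dex, and time and treatment cannot be told apart. Psmb8, for example, had 1296 ± 199 normalised counts in control mice, 1218 ± 179 with Dex, 572 ± 42.6 with zinc and 538 ± 92.2 with both, whereas Irf1 had its lower level with Dex. With both treatments 17 of the 20 targets were lower than in control mice, where 11.9% of all genes were lower.

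Of 16 targets of ISGF3, zinc alone lowered 2, Oas1a (-0.73 ± 0.17, adjusted p = 0.0339) and Ifit1 (-0.88 ± 0.21, adjusted p = 0.0375). These calls were kept in 6 and 4 of the 12 fits that left out 1 library. Dex alone lowered 4, with the smallest p-values for the mitochondrial nucleotide kinase gene Cmpk2 (-1.28 ± 0.16, adjusted p = 0.000423), Ifit3 (-1.12 ± 0.18, adjusted p = 0.00222) and Ifit2 (-1.06 ± 0.20, adjusted p = 0.00602). The list medians were -0.33 and -0.20. The share of all genes called lower was 2.54% with zinc alone, 4.51% with Dex alone and 11.9% with both. With both treatments 12 were lower and 0 higher, with a median of -0.88, and the smallest p-value was that of Ifit1 at -2.99 ± 0.23 (adjusted p = 7.10e-06). Without the libraries richest in B cell markers, 2 were lower with Dex alone and 5 with both.

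Among 10 genes listed as negative regulators of interferon signalling, zinc alone lowered Socs1, Isg15 and Socs3 (-1.41 ± 0.32, -0.79 ± 0.18 and -1.56 ± 0.38) and raised 0. These calls were kept in 6, 4 and 3 of the 12 fits that left out 1 library. Whether Isg15 acts as a negative regulator in mouse ileum was not tested. Dex alone lowered 3 and raised 2, the latter 1 without water + Dex replicate 1 or 2 or water + PBS replicate 3, and both counts were 1 without the libraries richest in B cell markers. Over all genes tested 2.54% were lower and 2.11% higher with zinc alone, and 4.51% lower and 5.41% higher with Dex alone. Socs1, which inhibits the receptor kinases, went from 122 ± 27.2 to 24.4 ± 3.35 with Dex (-2.31 ± 0.34, adjusted p = 0.00121), and Socs3 fell by 2.06 ± 0.39 (adjusted p = 0.00534). In the opposite direction Usp18, which removes ISG15 from proteins and blocks the type I receptor, rose from 116 ± 44.3 to 667 ± 62.0 (2.52 ± 0.31, adjusted p = 0.000285). Zinc lowered Usp18 in Dex mice (-1.74 ± 0.29, adjusted p = 0.00752), to 200 ± 80.2. Usp18 and Irf7 were thus both highest in water + Dex mice.

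Over the 12 libraries, Irf1, Irf8 and Batf2 followed each other closely, with Pearson's r of log2 CPM of 0.972 for Irf1 and Irf8, 0.971 for Irf1 and Batf2 and 0.948 for Irf8 and Batf2. Irf7 had r of 0.596 with Irf1 and 0.844 with Stat2. Among 14963 other genes, those most like Irf1 were Rilpl2 (r = 0.972), Sbno2 (0.971) and Ccdc93 (0.965), and those most like Irf8 were Rilpl2 (0.987), Cxcl10 (0.974) and Gbp4 (0.971). Those most like Batf2 were Chic1 (0.974), Ccdc93 (0.972) and Parp14 (0.970), those most like Stat2 were Stat3 (0.965), Isg15 (0.962) and Armc8 (0.956), and those most like Irf7 were Plin3 (0.966), Gsdmd (0.966) and Ddx60 (0.960). For the factors that were not called, the nearest genes were less alike: Nub1 for Irf9 (0.895), Grb2 for Irf2 (0.879) and Gm9821 for Irf3 (0.935). The 12 points share 4 groups, so these values describe group patterns as well as mouse-to-mouse variation.

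Cell type markers were summed beside these results, because IRF8 and IRF4 are also made by lymphoid and myeloid cells. The summed level of 10 B cell markers varied within groups from 408 to 8139 in control mice, 176 to 6072 in ZnSO4 + PBS, 252 to 3020 in water + Dex and 187 to 920 in ZnSO4 + Dex. In every library 9 or 10 of the 10 had counts, and 0 of 10 were called in any comparison. The median difference of the B cell markers was -0.58 with zinc alone, -1.56 with Dex alone and -3.18 with both against control. It was -1.61 for zinc in Dex mice and -2.66 for Dex in zinc mice. For the counts below, the share of all genes called lower was 2.54% with zinc alone, 4.51% with Dex alone and 11.9% with both. The share called higher with Dex alone was 5.41%. Of 9 T cell markers, 1 was lower with zinc alone, 0 with Dex alone and 8 with both treatments, and their summed level ranged from 1069 to 2023 in control mice, 495 to 1174 with zinc, 984 to 1314 with Dex and 545 to 555 with both. The summed level of 12 macrophage and dendritic cell markers ranged from 2848 to 3679 in control mice and from 2429 to 2831, 3319 to 3908 and 3142 to 3560 in the zinc, Dex and combined groups. With zinc alone 0 of these 12 were called, and with Dex alone 1 was lower and 2 were higher. Of 5 plasma cell markers, 1 was lower with zinc alone, 1 with Dex alone and 4 with both treatments, the comparison in which Irf4 was called, with median differences of -0.90, -0.36 and -0.90. Their summed level ranged from 25553 to 26432 in control mice, 15485 to 23003 with zinc, 20503 to 28000 with Dex and 16080 to 22533 with both. Of 4 plasmacytoid dendritic cell markers (Siglech, Bst2, Ccr9 and Tcf4), 1 was lower with zinc alone, 0 with Dex alone and 1 with both. Bst2 is also in the list of ISGF3 targets, so this set does not measure these cells alone. The summed level of 8 enterocyte markers ranged from 220006 to 248969 in control mice and 210720 to 279886 with zinc. It ranged from 267437 to 314247 with Dex and from 136058 to 271783 with both. The lowest sum, 136058, was that of ZnSO4 + Dex replicate 2, also the library with the lowest Irf7.

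**Figure D4:**
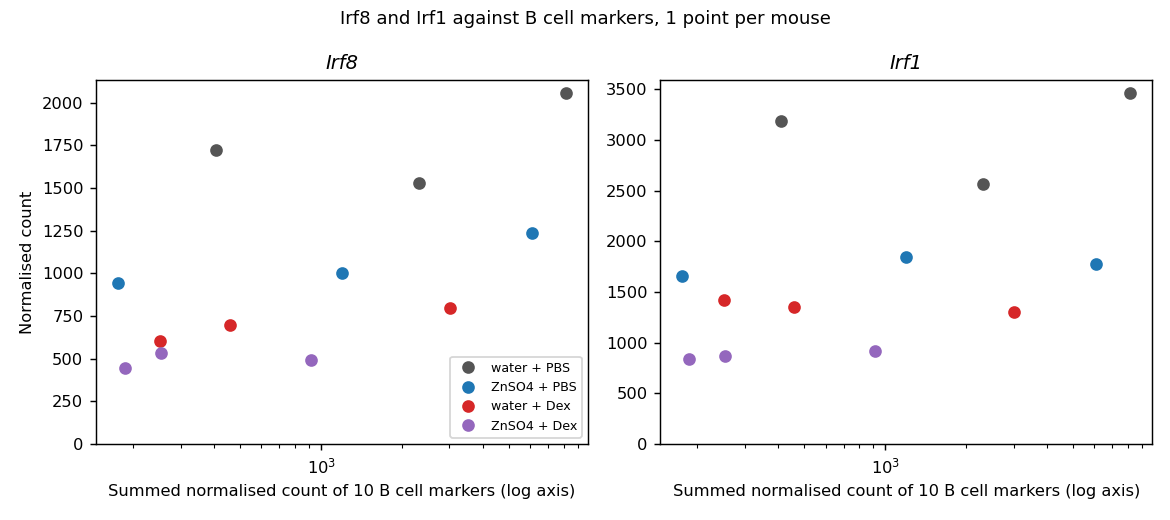
Normalised count of Irf8 (left) and Irf1 (right) on axes that start at 0, against the summed normalised count of 10 B cell markers on a log axis, 1 point per mouse coloured by group. Control mice lie above the other groups over a B cell range of 408 to 8139, and within groups Irf8 is highest in the mouse richest in B cell markers in 3 of the 4 groups.

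Irf8 was highest in the library richest in B cell markers among the control, ZnSO4 + PBS and water + Dex mice, but not among ZnSO4 + Dex mice. With the mean log2 CPM of the B cell markers as a covariate, the number of factors called was 4 with zinc alone, 3 with Dex alone and 5 with both, as without it. Leaving out the library richest in B cell markers from each group, chosen after these values had been seen, left 2 mice per group. Then 0 of 8 factors were called with zinc alone, with adjusted p of 0.0596, 0.0596 and 0.0597 for Irf1, Irf8 and Batf2 and of 0.289 for Stat2, and only 94 genes were called in the whole table instead of 742. The zinc differences were then -0.72 for Irf1, -0.74 for Irf8, -0.99 for Batf2 and -0.31 for Stat2. In the same fit the 3 factors called with Dex alone and the 5 called with both remained called, with Irf1 at -1.05 and -1.75, Irf8 at -1.32 and -1.73 and Batf2 at -1.56 and -2.91. The part of T cells, plasma cells and enterocytes in the results was not tested.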

How the data were processed

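Ileum RNA was sequenced in 12 libraries, 3 mice in each group, grouped by the sample labels. According to the study's methods and the submitters' processing notes, the authors made stranded single-end libraries, trimmed reads with Trimmomatic, mapped them to mm10 with HISAT2 2.0.4 and counted reads per gene with featureCounts. The annotation release and strand setting are not given in the sources used here. The deposited values are raw read counts per gene of 54838 Ensembl identifiers, of which 24517 were 0 in all libraries. Symbols came from the GENCODE annotation of GRCm38, the assembly of mm10, for 54723 identifiers. If counted without strand, reads on up to 3.40% of the exonic bases of Irf1, Irf3, Irf7 or Batf2 could come from a gene on the other strand.

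Low genes were removed by filterByExpr (groups given, minimum count 10). The remaining 15938 genes were scaled by TMM and fitted with 4 group means in 1 quasi-likelihood model (glmQLFit and glmQLFTest of edgeR 4.0.16 in R 4.3.3). All p-values are two-sided, and adjusted p are by Benjamini-Hochberg over all genes tested. The threshold of 0.05 is the study's, and its cut-off of 0.8 on the log2 fold change served as an alternative. In simulated data with 200 genes changed by a log2 fold of 1, 73.5% were recovered for zinc in PBS mice and 73% for Dex in water mice, with 6 and 12 unchanged genes called.

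The 8 genes, the lists around them and the cell type markers were chosen with earlier results of these data known. From each list the called genes with the 3 smallest p per comparison were to be named, Mt1, Slc39a4, Fkbp5 and Tsc22d3 as checks of the treatments, and for each factor the 3 genes with the highest Pearson's r. Some genes of the family lists are not reported here. Promoter windows are those upstream of RefSeq starts on GRCm38.p6. The set used held windows for 7 of the 8 factors, so the promoter of Batf2 was not searched. Alternatives were DESeq2 1.42.0, RLE and upper-quartile factors, all genes with a count, a floor of 10 counts in each of the libraries, only the groups compared, the replicate number as a block, a B cell covariate and leaving out each library in turn. No pair of libraries within a group was alike enough to be 1 library sequenced again (chi-square per degree of freedom from 7.63 to 41.0).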

Additional observations from a re-analysis of the deposited data

How the results depend on the processing

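The falls of Irf1, Irf8 and Batf2 with Dex alone, with Dex in zinc mice and with both treatments were called under every alternative and in every fit without 1 library, and so were those of Stat2 and Irf7 with both. The falls of Irf1 and Batf2 with zinc alone were called in all of these but the fit without the libraries richest in B cell markers. Genes under the filter on low counts, such as the interferons, could not be compared at this depth.

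With a log2 fold change above 0.8 required, 2 factors were called with zinc alone, 2 with zinc in Dex mice and 3 with Dex in zinc mice, and 0 lower and 0 higher for zinc against Dex alone. The whole table then held 271, 705, 303, 926, 1540 and 1166 calls for zinc alone, Dex alone, zinc in Dex mice, Dex in zinc mice, both against control and zinc against Dex. With only the groups compared in the fit, 2 factors and 411 genes were called with zinc alone and 1417 genes with Dex in zinc mice. Without the library richest in B cell markers in each group, which leaves 2 mice a group, 0 factors were called with zinc alone and 2 with zinc in Dex mice (Irf7 and Batf2). For zinc against Dex this left 0 lower and 1 higher (Irf8), and the whole table held 94, 712, 142, 1314, 2115 and 1456 calls. DESeq2 called 6 genes for the interaction. The cause of these shifts was not tested.

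Among calls of single factors, Stat2 with zinc alone was lost with only the groups compared (adjusted p = 0.0832) and with all genes that had a count (0.0572). Irf8 with zinc alone was lost with only the groups compared (0.0508), and so was Irf7 with Dex in zinc mice (0.0680). Irf8 with zinc in Dex mice was gained with DESeq2 (0.0156), all genes with a count (0.0412) and the B cell covariate (0.0450), and Stat2 with Dex alone was gained with upper-quartile factors (0.0492) and without water + PBS replicate 3 (0.0480). Same-numbered mice were no more alike than others (median r = -0.06 over 18 pairs, 0.02 over 36 pairs of unlike number). Single same-numbered pairs ranged from -0.36 to 0.46. These values gave no sign that the numbers pair the mice, but they cannot exclude it. With the replicate number as a block, 3, 3, 5, 5 and 5 factors were called with zinc alone, Dex alone, zinc in Dex mice, Dex in zinc mice and both. Stat2 was the call lost (0.0675) and Irf8 the call gained (0.0381).

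Upper-quartile factors moved the share of higher calls over the whole table from 41.8% to 51.8% for zinc in Dex mice and from 45.4% to 55.1% for zinc alone. Leaving out 1 library at a time gave 2 to 5 factors with zinc alone, 4 to 4 with zinc in Dex mice, 1 to 3 higher and 0 to 1 lower for zinc against Dex, and 283 to 1001, 936 to 1852, 322 to 696 and 1840 to 3163 genes in the whole table with zinc alone, Dex alone, zinc in Dex mice and zinc against Dex. The lowest counts came without ZnSO4 + PBS replicate 3, water + Dex replicate 3, water + Dex replicate 2 and water + Dex replicate 3.

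Differences near 0 changed sign. Irf2 with zinc alone became 0.00443 with upper-quartile factors, 0.00921 with the B cell covariate and 0.0818 without the libraries richest in B cell markers, and ranged from -0.114 to 0.113 without 1 library. Irf2 with Dex alone became -0.00978 with upper-quartile factors (-0.0860 to 0.141 without 1 library), and Irf2 for zinc against Dex became 0.0142 (-0.0585 to 0.0297). With both treatments Irf2 ranged from -0.215 to 0.0116, Irf9 with Dex alone from -0.0262 to 0.171, and Irf3 with zinc in Dex mice from -0.0363 to 0.155. Irf3 with Dex in zinc mice became 0.0311 with the B cell covariate and 0.0800 without the libraries richest in B cell markers (-0.0707 to 0.0565), and Irf3 for zinc against Dex became -0.000208 in the latter fit (-0.00509 to 0.186).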
